A study of Mus musculus with 2 samples.

Results

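Modulated aortic VSMCs that carried mRNA of Il1rn were examined in cultures of primary murine VSMCs profiled by single-cell RNA sequencing. Members were chosen by their UMIs, the molecular identifiers that count each captured mRNA molecule once. Barcodes were taken as cells from 3000 UMIs and 300 detected genes upwards, if mitochondrial UMIs made up less than 20%. A member was a cell with at least 1 UMI of Il1rn, at most 1 UMI of Myh11 (the smooth muscle myosin heavy chain of contractile SMCs), fewer than 3 UMIs summed over the proliferation genes Mki67, Top2a and Cenpf, at most 1 UMI of Sox9 and 0 UMIs of Fgf18. By this rule 362 of 11690 cells were members. They were 254 of 4866 cells in biological replicate 1 (5.22%, exact binomial 95% interval 4.61 to 5.88) and 108 of 6824 cells in biological replicate 2 (1.58%, interval 1.3 to 1.91). The intervals cover counting error only.

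The data are 2 libraries of 1 condition, so that the comparisons lie between cells of the same culture. Both libraries are of VSMCs from the aorta of wild type mice, without a transgene or a deletion, kept untreated in full medium for 5 days. The study used cultures of primary VSMCs as a model in which cells of different phenotypes could be compared for their cGMP responses. The aortae of several mice were pooled per preparation, and the age of the mice used for sequencing is not stated separately in the sources used here. The deposited matrices held 127949633 UMIs in replicate 1 and 132561822 in replicate 2, and the median cell had 22234.5 and 16310 UMIs. The libraries stood apart in sex-linked mRNAs. Xist was at 0.0335 CPM (UMIs of a gene scaled by all UMIs of the library or sum) in replicate 1 and at 472 CPM in replicate 2, while Ddx3y was at 90.8 and 0 CPM, so that differences between the libraries and between the sexes of the mice cannot be told apart. The libraries shared 9 cell barcodes, and 0 members had the barcode of a cell in the other library.

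Il1rn encodes the interleukin-1 receptor antagonist, a secreted protein that occupies the IL-1 receptor without starting a signal and thereby limits the action of IL-1. IL-1 itself acts through the adaptor MyD88 and the transcription factor NF-kB and is a strong inducer of chemokines, pentraxins and other acute phase proteins in cells of the vessel wall. VSMCs that lose their contractile genes in culture or in plaques can take on fibroblast-like, chondrocyte-like, foam-cell-like or inflammatory features, and these states overlap.

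Detection of Il1rn was not particular to the members' gate. Among non-cycling cells with low Myh11, low Sox9 and no Fgf18, Il1rn was found in 254 of 1177 cells in replicate 1 (21.6%) and in 108 of 2219 cells in replicate 2 (4.87%). Cells with 2 or more Sox9 UMIs and no Fgf18 carried it in 24.3% and 4.78%, cells with Fgf18 and low Sox9 in 19% and 6.18%, and cycling cells with low Myh11 in 25.8% and 6.41%. The members held 24.2% and 30.8% of all Il1rn UMIs found in cells. Il1rn was therefore detected over the whole range of modulated cells, and the members are the part of it outside the cycling, Sox9 and Fgf18 gates.

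Cells that should lack Il1rn give the background of these shares. Cells with 5 or more UMIs of endothelial genes carried an Il1rn UMI in 7.34% of 109 cells in replicate 1 and in 0.685% of 146 cells in replicate 2, at a median of 14735 and 10166.5 UMIs against 17130 and 12747 in the members' gate. Contractile cells with 10 or more Myh11 UMIs carried it in 9.38% and 0.69%, at a median of 24798 and 19632 UMIs. After thinning each cell to 3000 UMIs the share was 11.1% and 2.03% in the members' gate, 1.64% and 0.0467% in endothelial cells and 3.62% and 0.0672% in contractile cells. In each library the gated cells thus lay above both kinds of cells, and the replicates differed in each class that was compared. Free RNA, read from barcodes with 1 to 100 UMIs, held Il1rn at 43.1 CPM in replicate 1 and at 7.3 CPM in replicate 2. Macrophages, which are known to make the antagonist, were few. Cells with 10 or more macrophage UMIs numbered 12 and 5, of which 9 and 2 carried Il1rn.

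**Figure D1:**
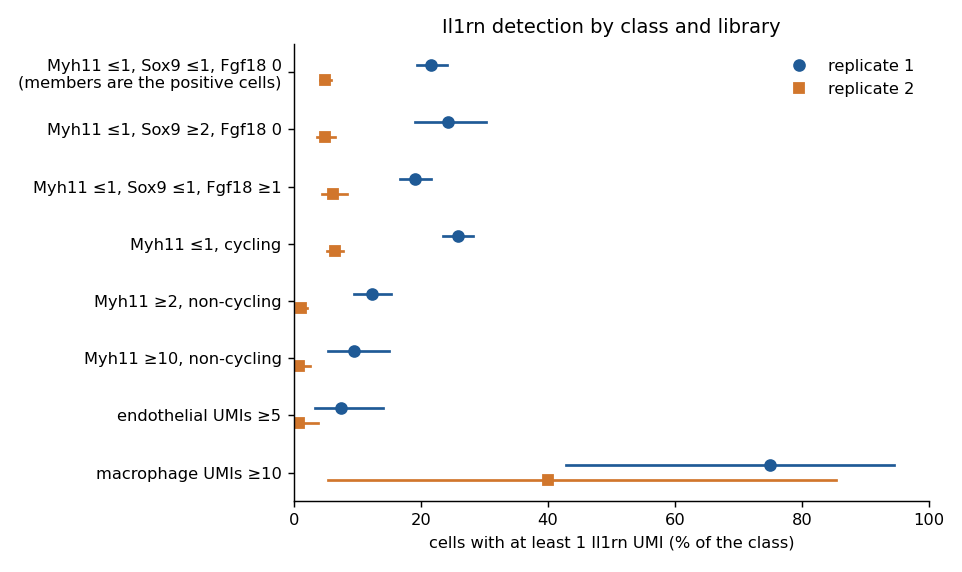
Share of cells with at least 1 Il1rn UMI (percent of the class, x axis) in 8 classes of cells, with points for each library and lines for exact binomial 95% intervals. In both libraries the 4 classes with low Myh11 lie above the contractile and endothelial classes, and replicate 1 lies above replicate 2 in each class.

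Most members carried few Il1rn molecules. The median member had 3 UMIs in replicate 1 and 1 UMI in replicate 2, and the highest had 38 and 13. A single UMI defined 76 of 254 members (29.9%) and 58 of 108 members (53.7%), while 48 and 4 members had 10 or more UMIs. In replicate 1 those 48 cells held 56.8% of the members' Il1rn UMIs. The summed level, which the rule fixes to be above 0, was 294 CPM in replicate 1 and 180 CPM in replicate 2. Il1rn lies on chromosome 2 (GRCm38, 24336853 to 24351494, plus strand).

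The promoters of Il1rn and of Ptx3 and Cxcl1, which were higher in members as described further on, are shown. The source of promoters used here had no entry for Sfrp1, Hp or Lpl, so that the choice was limited by it. RefSeq (GRCm38.p6) lists 3 start sites for Il1rn, and the last of them is printed. Each stretch runs from 250 bases before to 50 bases after the start site. Capitals mark matches, on either strand, to the kB consensus of 10 bases or to the C/EBP letters TTNNGNAA.
Il1rn promoter, chr2:24345121-24345420, plus strand: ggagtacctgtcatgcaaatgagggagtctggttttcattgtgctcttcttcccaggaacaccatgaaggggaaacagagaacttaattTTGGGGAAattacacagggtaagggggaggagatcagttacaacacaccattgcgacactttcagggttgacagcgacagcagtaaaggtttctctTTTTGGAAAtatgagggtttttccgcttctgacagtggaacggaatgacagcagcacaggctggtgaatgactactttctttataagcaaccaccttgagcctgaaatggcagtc
Ptx3 promoter, chr3:66219637-66219936, plus strand: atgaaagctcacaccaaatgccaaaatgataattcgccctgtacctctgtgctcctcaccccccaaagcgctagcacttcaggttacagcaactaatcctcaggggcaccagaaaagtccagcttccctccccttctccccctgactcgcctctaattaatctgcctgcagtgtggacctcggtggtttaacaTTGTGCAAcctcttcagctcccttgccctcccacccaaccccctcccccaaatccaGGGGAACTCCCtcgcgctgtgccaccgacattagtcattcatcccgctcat
Cxcl1 promoter, chr5:90890995-90891294, plus strand: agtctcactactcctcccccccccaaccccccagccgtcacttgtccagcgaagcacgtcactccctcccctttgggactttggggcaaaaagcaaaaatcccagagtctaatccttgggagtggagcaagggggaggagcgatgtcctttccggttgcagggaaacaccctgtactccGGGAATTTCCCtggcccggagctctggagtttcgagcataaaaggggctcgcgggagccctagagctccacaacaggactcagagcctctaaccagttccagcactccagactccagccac
The kB consensus was found in 8.46% and the C/EBP letters in 40.7% of 32851 promoters of the same length. The Il1rn stretch held 3 C/EBP matches, of which the last 2 overlap, and no kB match. The stretch at the first start site, chr2:24336610-24336909, held neither, and the second overlaps the printed one and held the same 3 matches. Ptx3 held 1 C/EBP match and 3 overlapping kB matches, 2 on the plus and 1 on the minus strand. Cxcl1 held 2 overlapping kB matches, 1 on each strand. A match describes the letters in this window and is not evidence of binding.

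Each member was set against a non-cycling cell of its own library with at most 1 Myh11 UMI, 0 Il1rn UMIs and nearly the same number of UMIs. All 254 and 108 members found such a partner, at a median of 17870 against 17871 UMIs in replicate 1 and of 13283 against 13281.5 UMIs in replicate 2. The UMIs were summed per library and class and the 4 sums were compared with edgeR's quasi-likelihood test, with the library as a block and without the genes of the rule. Of 10424 genes tested, 283 were higher and 423 lower in members at a Benjamini-Hochberg adjusted p under 0.05, that is, 2.71% and 4.06% of all genes and 6.77% in either direction. Of the 706 genes, 675 differed in the same direction in both libraries. The median log2 fold change over all genes was 0. DESeq2 on the same sums called 23 genes higher and 37 lower, and each of these 60 was also called by edgeR. The calls depend on the fit: edgeR called 0 higher and 0 lower without the library block (362 genes at an unadjusted p under 0.05), 0 and 4 with 8 sums in the fit (1060 genes), and 33 and 53 after each cell had been thinned to 3000 UMIs. The fit leaves 1 residual degree of freedom per gene, so that its p-values rest on a spread pooled over genes. An exact two-sided permutation test of 2 against 2 sums cannot go below p = 0.333.

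A few cells of other types entered both groups. In replicate 1, 4 members and 3 of the matched cells had 2 or more UMIs of 8 macrophage genes, and in replicate 2 these were 2 members and 0 matched cells. A single member per library held nearly all UMIs of the macrophage genes. Of the 67 and 55 Tyrobp UMIs in members, 98.5% and 100% came from 1 cell, as did 91.6% and 97.4% of the Lyz2 UMIs. The 15 genes with the largest increase in members included 10 genes of myeloid cells, namely Tyrobp, Mmp12, Cd36, Ctss, C1qb, C1qc, Trem2, Lyz2, Cd68 and Fcer1g. The summed level of 12 macrophage genes was 148 and 266 CPM in members and 11.9 and 6.77 CPM in the matched cells, with Lyz2 as the most abundant gene. Of these 12, Aif1 was at 0 in the members of replicate 1, while Tyrobp, Ptprc, Adgre1, C1qa, C1qb, C1qc, Fcgr3 and Aif1 were at 0 in the matched cells of both libraries. Cells with 2 or more UMIs of 8 endothelial genes numbered 14 members and 14 matched cells in replicate 1 and 1 member and 6 matched cells in replicate 2, and those with 10 or more numbered 3 and 7 in replicate 1 and 0 and 4 in replicate 2. The 15 genes with the largest decrease included the endothelial genes Nts, Gja4, Plvap, Esam, Emcn, Pecam1 and Icam2, together with Lmo2 and Car8. The 8 endothelial genes summed to 57.7 and 13.5 CPM in members and to 93.6 and 130 CPM in the matched cells, with Egfl7 as the most abundant, and Cdh5, Cldn5, Kdr, Tie1 and Emcn were at 0 in the members of replicate 2.

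A stricter comparison, added after the data had been seen, therefore left out cells with 2 or more UMIs of 8 macrophage or of 8 endothelial genes and held the matched cells to the Sox9 and Fgf18 limits of the members. In the first comparison 51.6% and 40.7% of the matched cells exceeded those limits. The stricter comparison called 302 of 10229 genes higher (2.95%) and 378 lower (3.7%), or 6.65% in either direction. Each change alone gave fewer calls. Without the macrophage and endothelial cells 96 genes were higher and 149 lower, and with the limited matched cells 194 and 246. It shared 204 of the higher and 288 of the lower genes with the first. Lyz2 fell from a log2 fold change of 4.24 to -0.07, and Tyrobp, C1qa, C1qb, C1qc, Trem2, Mmp12, Cd36, Ctss, Pecam1, Emcn and Nts had too few UMIs left to be tested. Genes described in the following differed in the same direction in both comparisons unless stated.

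Of the other cell types checked, some were near 0 and some share genes with VSMCs. The neutrophil, mesothelial and keratinocyte genes summed to at most 2.3 CPM in the members of either library. Msln, Upk3b, Epcam, Krt5, Krt14, S100a8 and S100a9 were at 0 in both. The genes of adventitial fibroblasts summed to 1210 and 1663 CPM in members, with Dcn as the most abundant, and those of pericytes to 392 and 396 CPM, with Pdgfrb as the most abundant. Of 9 tested genes of adventitial fibroblasts, 4 were lower in members (Ly6c1, Col14a1, Dcn and Lum) and the other 5 did not pass. By comparison, 4.06% of all genes were called lower. Dcn and Ly6c1 were lower in replicate 1 only. In the stricter comparison 5 of 8 were lower, with Gsn in addition, and Cd248 was higher. Of 5 tested pericyte genes 1 was lower, Cspg4, which lost its call in the stricter comparison, where Rgs5 was lower instead. Of the Schwann cell genes 1 could be tested, S100b, and it did not pass. The adipocyte genes summed to 406 and 509 CPM in members, of which Fabp4 made up 402 and 508 CPM, and Fabp4 was the only one tested and was higher. Of the others, Plin1 had 12 and 2 UMIs in members and 1 and 0 in matched cells, Retn 4 and 0, Adipoq 2 and 0 and Cidec 1 and 0 in members, and Lep had none. Retn, Adipoq, Cidec and Lep had 0 UMIs in the matched cells.

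Sfrp1, Hp and Cxcl1, which with Il1rn gave these cells their working name, were higher in members of both libraries. They were proposed with earlier results of these data known, so that their differences describe the cells and are not independent support. Sfrp1, a secreted inhibitor of Wnt signalling, was at 1428 and 356 CPM in members and at 515 and 144 CPM in the matched cells of replicates 1 and 2. Each library showed the increase, but the members of replicate 2 lay below the matched cells of replicate 1. The log2 fold change was 1.38 ± 0.06 (SE, n = 2 libraries, edgeR adjusted p = 6.18e-89), and Sfrp1 passed in the same direction in 13 of 15 alternative settings. Here and below the SE comes from the fit and is not the spread between the libraries. For Sfrp1 the libraries gave 1.47 and 1.3. A Sfrp1 UMI was found in 90.2% and 63.9% of members and in 65.4% and 38.0% of matched cells.

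Hp encodes haptoglobin, the acute phase protein that binds free haemoglobin. It was at 258 and 161 CPM in members and at 74.4 and 21 CPM in the matched cells, without overlap between the groups. The log2 fold change was 1.98 ± 0.10 (SE, n = 2 libraries, edgeR adjusted p = 1.83e-68), passed in 13 of 15 alternative settings, DESeq2 among them. The libraries gave 1.79 and 2.93, which lie further apart than the SE. Hp was concentrated in a part of the cells. It was found in 49.6% and 36.1% of members, and the top 5% of members held 49.3% and 54.0% of its UMIs. Cxcl1, a chemokine that attracts neutrophils, was at 74.4 and 24.4 CPM in members and at 39.9 and 6.1 CPM in the matched cells, and the libraries overlapped between the groups. Its log2 fold change was 0.97 ± 0.16 (SE, n = 2 libraries, edgeR adjusted p = 6.07e-08), passed in 10 of 14 alternative settings. The libraries gave 0.9 and 2.0. Only 26.0% and 17.6% of members carried a Cxcl1 UMI, against 17.3% and 3.7% of matched cells.

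**Figure D2:**
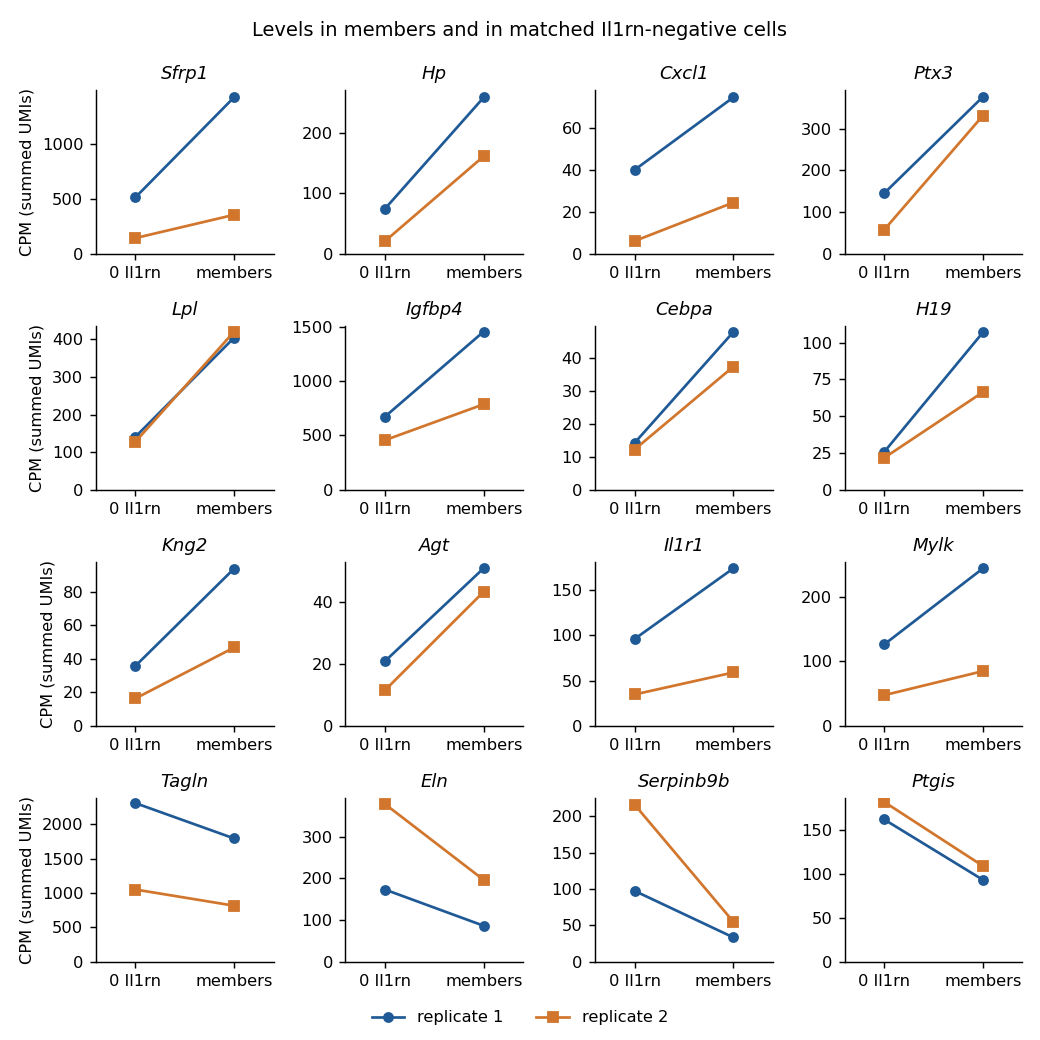
Levels of 16 genes (CPM of summed UMIs, y axes from 0) in matched Il1rn-negative cells and in members, with 1 line per library. The first 12 genes were higher in the members of both libraries, and Tagln, Eln, Serpinb9b and Ptgis were lower in both.

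IL-1 itself was not detected, whereas its receptors were. The ligand genes Il1a and Il1b had 0 UMIs in members and in matched cells of both libraries, which allows up to 0.627 CPM in replicate 1 and 2.03 CPM in replicate 2. Of 12 tested genes of the IL-1 list other than Il1rn, 3 were higher in members and 9 did not pass, against 2.71% of all genes called higher. Besides ligands and receptors the 12 include the adaptor Myd88, the Irak kinases and the caspase genes Casp1 and Casp4. The receptor genes Il1rap and Il1rl2 did not pass, at log2 fold changes of 0.05 and 1.02. The median log2 fold change of the 12 was 0.30, against 0 over all genes. Il1r1, the signalling receptor of IL-1, was at 174 and 58.9 CPM in members and at 95.9 and 34.6 CPM in matched cells (log2 fold change 0.81 ± 0.11, SE). The decoy receptor Il1r2 was at 12.7 and 5.42 CPM against 5.22 and 4.06 CPM, and passed in only 4 of 13 alternative settings. Of the other agonists of the family, Il33, a nuclear alarmin cytokine, was at 28.2 and 12.9 CPM against 11.5 and 4.74 CPM (log2 fold change 1.28 ± 0.24, SE). Il18 was at 2.51 and 4.06 CPM against 2.3 and 2.03 CPM, and its receptor genes Il18r1 and Il18rap had 0 UMIs. The adaptor Myd88 and the kinases Irak1, Irak2, Irak3 and Irak4 did not pass.

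Most NF-kB genes did not pass. Of 15 tested subunits and feedback genes, 1 was higher in members and 14 did not pass, at a median log2 fold change of 0.08. The exception was Tnfaip2, a gene induced by TNF, at 67.1 and 19 CPM in members and 24.4 and 6.1 CPM in matched cells (log2 fold change 1.43 ± 0.17, SE). Nfkbia, which encodes the inhibitor IkBa and is a direct NF-kB target, was at 134 and 118 CPM in members and 163 and 95.5 CPM in matched cells. Sod2, the mitochondrial superoxide dismutase, was at 93.8 and 93.5 CPM against 78.1 and 112 CPM. The called share of this list, 1 of 15 genes, was near the 6.77% of all genes. The cells are named here by their rule, as Il1rn-positive cells.

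Chemokine genes were called higher by edgeR more often than the 2.71% of all genes. Of 5 tested CXC chemokines, 4 were higher in members and 1 did not pass, at a median log2 fold change of 0.97. The median is the value of Cxcl1, which is among the 4 and is a gene of the working name, so that this count is not independent support. Cxcl5, another ligand of the neutrophil receptor CXCR2, was at 17.5 and 7.45 CPM in members and 5.43 and 1.35 CPM in matched cells (log2 fold change 1.73 ± 0.34, SE). Cxcl14 was at 36.8 and 3.39 CPM against 11.3 and 2.71 CPM, so that most of its difference came from replicate 1. There 1 cell held 35.2% of its 176 UMIs in members, and it was found in 12.2% of members and 10.6% of matched cells. Cxcl16 was at 81.3 and 69.8 CPM against 58.5 and 39.3 CPM, and did not pass in the stricter comparison. Cxcl12, the constitutive chemokine of stromal cells, did not pass at 2899 and 2263 CPM against 2432 and 2383 CPM. Of 6 tested CC and CX3C chemokines, 2 were higher and 4 did not pass, at a median of 0.43. Ccl7, a monocyte attractant, was at 107 and 44.7 CPM in members and 32.0 and 30.5 CPM in matched cells (log2 fold change 1.41 ± 0.15, SE), with the larger difference in replicate 1. Ccl9 was at 24.6 and 11.5 CPM against 6.69 and 10.2 CPM. Ccl2 did not pass in the first comparison at 53.3 and 19 CPM against 40.3 and 30.5 CPM, whereas it was called higher in the stricter one. There the libraries went in opposite directions for Ccl2, with 57.2 against 29.9 CPM in replicate 1 and 19 against 23.9 CPM in replicate 2. DESeq2 called 0 genes of either chemokine list and gave no adjusted p for Cxcl1, Cxcl5 and Cxcl14.

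In the IL-6 list and among interferon-stimulated genes 2 genes each were called, a larger share than the 6.77% of all genes. Besides IL-6 family cytokines and receptors the tested genes of the IL-6 list include Csf1, Socs3 and Stat3. Of its 12 tested genes, the receptor subunits Il6ra and Il6st were lower and the other 10 did not pass. The median log2 fold change was -0.02. In the stricter comparison both Il6ra and Il6st lost their call. Il6 itself was at 27.2 and 9.48 CPM in members and 18.0 and 4.06 CPM in matched cells and did not pass. Of 14 tested interferon-stimulated genes, Isg15 and Irf7 were higher and the other 12 did not pass, at a median of 0.39. Isg15 was at 73.3 and 61.7 CPM against 47.4 and 37.9 CPM, and did not pass in the stricter comparison. Of 10 tested genes of adhesion and antigen presentation, Psmb8 was higher, Selp was lower and the other 8 did not pass. In the stricter comparison Psmb8 lost its call, and Selp, an endothelial gene, had too few UMIs to be tested.

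Among acute phase and complement genes, Hp and Ptx3 stood out. Ptx3 encodes pentraxin 3, a soluble pattern recognition molecule made by vascular and stromal cells. It was at 376 and 331 CPM in members and 145 and 57.6 CPM in matched cells, without overlap, and was found in 73.6% and 53.7% of members. The log2 fold change was 1.66 ± 0.08 (SE, n = 2 libraries, edgeR adjusted p = 2.16e-73), and 1.93 in the stricter comparison. In the first comparison the libraries gave 1.37 and 2.52, which lie further apart than the SE. Of 7 tested acute phase genes, 2 were higher, 4 did not pass and Serpina3n, a serine protease inhibitor, was lower at 36.6 and 31.8 CPM against 87.5 and 49.5 CPM. Over all genes 2.71% were called higher and 4.06% lower, and Hp, a gene of the working name, is among the 2. Among the 15 tested complement genes, 5 were higher, but C1qa, C1qb, C1qc and C3ar1 came mostly from 1 cell per library. In the stricter comparison 1 of 11 was higher, C3, at a median of 0.18.

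Lipid handling genes differed as well. Lpl encodes lipoprotein lipase, which frees fatty acids from triglyceride-rich lipoproteins. It was at 405 and 421 CPM in members and 141 and 128 CPM in matched cells, and each library of members lay above both libraries of matched cells. The log2 fold change was 1.56 ± 0.08 (SE, n = 2 libraries, edgeR adjusted p = 5.39e-75), passed in 13 of 15 alternative settings, DESeq2 among them. The libraries gave 1.53 and 1.72. Fabp4, a fatty acid binding protein of adipocytes and macrophages, was at 402 and 508 CPM against 285 and 327 CPM (log2 fold change 0.52 ± 0.07, SE). Of 14 tested genes of the lipid and foam cell list, 8 were higher and 6 did not pass, but Cd36, Trem2, Cd68 and Lgals3 came mostly from 1 cell per library. In the stricter comparison 3 of 11 were higher and 2 lower, at a median of 0.02. The shares over all genes were 2.71% higher in the first, and 2.95% higher and 3.7% lower in the stricter comparison. Spp1, the gene of osteopontin, was at 234 and 211 CPM in members and 51.6 and 125 CPM in matched cells, with log2 fold changes of 1.57 ± 0.10 (SE) in the first and 0.66 ± 0.13 (SE) in the stricter comparison. In the latter the libraries went in opposite directions, with 237 against 64.5 CPM in replicate 1 and 218 against 330.0 CPM in replicate 2, and DESeq2 did not call Spp1 in the first. Lgals3, a galectin high in macrophages, was higher in the first (log2 fold change 0.57) and lower in the stricter comparison (-1.22), and 57.1% and 65.7% of its UMIs in members came from 1 cell. Apoe and Gpnmb did not pass in either.

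Some transcription factor and hormone precursor genes were named after their values had been seen. Cebpa, a regulator of hepatocyte and adipocyte genes, was at 47.8 and 37.3 CPM in members and 14.2 and 12.2 CPM in matched cells, without overlap (log2 fold change 1.68 ± 0.19, SE, edgeR adjusted p = 5.87e-16). Pparg, the nuclear receptor of adipocyte differentiation, was at 17.5 and 19.6 CPM against 6.48 and 6.77 CPM (log2 fold change 1.42 ± 0.28, SE). Cebpb was at 540 and 474 CPM against 405 and 348 CPM (log2 fold change 0.39 ± 0.06, SE), and Cebpd did not pass at 306 and 400 CPM against 343 and 442 CPM. Agt, the angiotensinogen gene, was at 51.0 and 43.4 CPM in members and 20.9 and 11.5 CPM in matched cells (log2 fold change 1.39 ± 0.17, SE). Kng2, a kininogen, was at 93.8 and 46.7 CPM against 35.7 and 16.3 CPM (log2 fold change 1.38 ± 0.15, SE), and Kng1 at 54.1 and 20.3 CPM against 16.1 and 6.77 CPM. Kng1 and Kng2 are close copies, and the split of reads between them is uncertain.

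Further genes with large differences came from several functions. H19, an imprinted long non-coding RNA, was at 107 and 66.4 CPM in members and 25.7 and 21.7 CPM in matched cells (log2 fold change 1.91 ± 0.15, SE). Igfbp4, a binding protein of insulin-like growth factors named after its values were seen, was at 1454 and 786 CPM against 672 and 456 CPM (log2 fold change 0.94 ± 0.05, SE). Slc1a3, a glutamate transporter, was at 24.9 and 10.8 CPM against 5.43 and 2.03 CPM (log2 fold change 2.18 ± 0.30, SE). Lrrc17 was at 17.1 and 8.13 CPM against 1.04 and 6.1 CPM, so that its difference came mostly from replicate 1. Megf10, an engulfment receptor, was at 14.4 and 8.81 CPM against 4.18 and 0 CPM. Ear2, an eosinophil-associated ribonuclease, was at 2.51 and 33.9 CPM against 0.209 and 5.42 CPM, and could not be tested in the stricter comparison. Ccbe1 and Ebf2, which were among the 15 largest increases of the stricter comparison, were at 39.1 and 32.5 CPM against 12.3 and 8.81 CPM, and at 43.2 and 30.5 CPM against 15 and 8.13 CPM.

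Secreted Wnt modulators moved in both directions. Of 12 tested genes, 4 were higher, 2 lower and 6 did not pass, at a median log2 fold change of 0.36. Over all genes 6.77% were called in either direction, and Sfrp1, a gene of the working name, is among the 4. Besides Sfrp1, the ligand gene Wnt5a was at 41.6 and 65.0 CPM in members and 26.9 and 38.6 CPM in matched cells, and Rspo2, a gene that enhances Wnt signalling, at 77.3 and 65.0 CPM against 49.1 and 32.5 CPM. The Wnt inhibitor Frzb was lower at 25.9 and 34.6 CPM against 47.8 and 79.9 CPM (log2 fold change -1.03 ± 0.15, SE). Sfrp2 and Sfrp4 passed in opposite directions, but each differed in sign between the libraries, at 675 and 557 CPM against 437 and 639 CPM for Sfrp2 and 19.2 and 19 CPM against 40.5 and 17.6 CPM for Sfrp4.

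**Figure D3:**
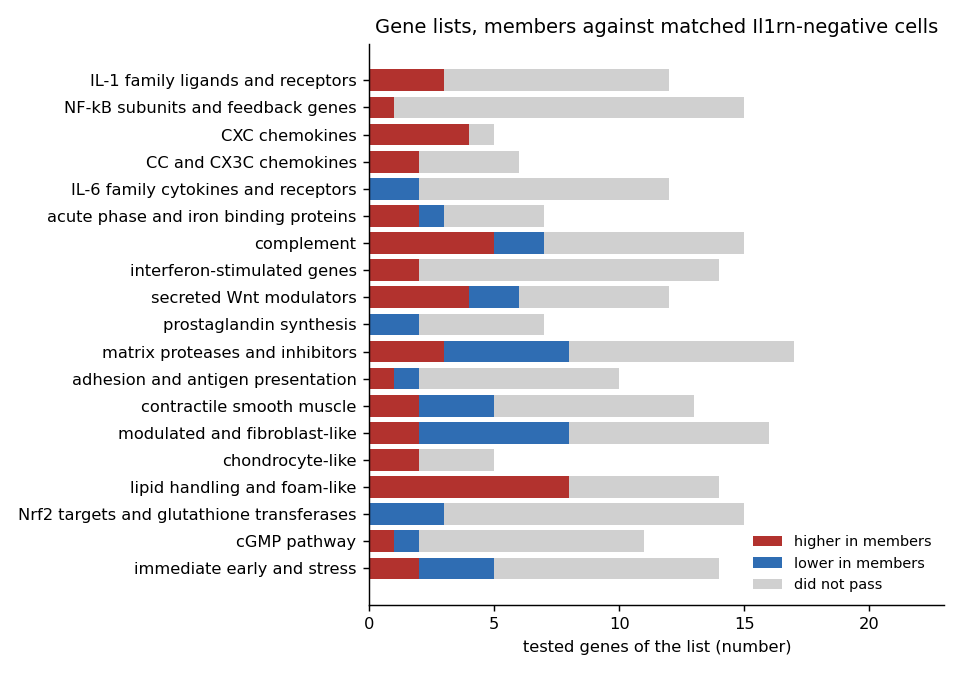
Number of tested genes per list (x axis) that were higher in members, lower in members or did not pass at an edgeR adjusted p of 0.05. Of the lists shown, the CXC chemokines (4 of 5) and the lipid genes (8 of 14) have the largest shares of higher genes, but 4 of the 8 higher lipid genes and 4 of the 5 higher complement genes came mostly from 1 cell per library.

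The members were not more contractile than the matched cells by most markers. Of 13 tested contractile genes, 2 were higher, 3 lower and 8 did not pass, at a median log2 fold change of -0.14. By comparison, 6.77% of all genes were called in either direction. Tagln, an actin-binding protein of SMCs, was at 1791 and 814 CPM in members and 2305 and 1049 CPM in matched cells (log2 fold change -0.40 ± 0.05, SE), and Acta2 at 3531 and 1877 CPM against 4141 and 2171 CPM. Mylk, which encodes myosin light chain kinase and also a non-muscle form, was higher at 244 and 84.7 CPM against 126 and 47.4 CPM (log2 fold change 0.90 ± 0.10, SE). Cnn1 was at 95.9 and 4.74 CPM against 64.6 and 2.71 CPM.

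Fibroblast-like genes of modulated cells mostly did not pass or were lower. Of 16 tested, 2 were higher, 6 lower and 8 did not pass, at a median of -0.06, against 6.77% of all genes called in either direction. S100a4, a calcium-binding protein of modulated cells, was at 1973 and 2871 CPM against 2729 and 3383 CPM (log2 fold change -0.39 ± 0.04, SE). Lum, the proteoglycan lumican, was at 82.9 and 176 CPM against 130 and 246 CPM (log2 fold change -0.61 ± 0.09, SE), and Thy1 at 316 and 126 CPM against 415 and 158 CPM. Pdgfra did not pass at 121 and 140 CPM against 120 and 127 CPM, while Col3a1 was higher at 992 and 536 CPM against 735 and 459 CPM. The markers Lum, Pdgfra and S100a4 of modulated SMCs were thus present in the members of both libraries.

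Chondrocyte-like genes gave no common direction. The 5 tested genes had 2 higher and 3 that did not pass, against 2.71% of all genes called higher. However, Comp was at 104 and 36.6 CPM against 31.5 and 37.9 CPM and so differed in replicate 1 only. Col2a1 was at 3.97 and 42.0 CPM against 2.51 and 8.81 CPM, with 36.8% and 56.5% of its UMIs in members from 1 cell, and turned to lower in the stricter comparison.

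Eln, the elastin gene, named after its values were seen, was at 86.1 and 196 CPM in members and 173 and 378 CPM in matched cells (log2 fold change -1.02 ± 0.09, SE), and passed in 14 of 15 alternative settings. Of 16 protease and inhibitor genes tested in the stricter comparison, 2 were higher and 4 lower, at a median of 0.12. The shares over all genes there were 2.95% higher and 3.7% lower. The inhibitors Timp2 and Timp3 were lower in both comparisons, at 1116 and 1599 CPM against 1518 and 1921 CPM for Timp2. Of 7 tested prostaglandin genes, 2 were lower and 5 did not pass, against 4.06% of all genes called lower. Ptgis, the prostacyclin synthase gene, was at 93.2 and 109 CPM against 162 and 182 CPM (log2 fold change -0.81 ± 0.10, SE), and Ptgs2 was at 32.8 and 40.0 CPM against 57.7 and 46.7 CPM. Of 11 tested genes of the cGMP pathway, 1 was higher, 1 lower and 9 did not pass. The share called over all genes was 6.77% in either direction. Npr2, which encodes the CNP receptor GC-B, was at 24.9 and 30.5 CPM in members and 37.8 and 64.4 CPM in matched cells (log2 fold change -0.80 ± 0.16, SE), and the clearance receptor Npr3 was at 257 and 212 CPM against 205 and 164 CPM.

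Stress-related lists had medians near 0, but larger shares of called genes than the 6.77% of all genes. Of 15 tested Nrf2 targets and glutathione transferases, 3 were lower and 12 did not pass, at a median of -0.03, and Aldh1a1, an aldehyde dehydrogenase, was among the lower genes at 59.3 and 67.7 CPM against 95.9 and 110 CPM. Of 14 immediate early and stress genes, 2 were higher, 3 lower and 9 did not pass, at a median of 0.06. Klf4, a transcription factor of phenotypic modulation, was at 113 and 132 CPM against 171 and 199 CPM (log2 fold change -0.63 ± 0.09, SE), and Dusp1 at 80.4 and 136 CPM against 122 and 180 CPM. The 8 tested cycling genes did not pass. In the stricter comparison the calls of some lists shifted by single genes, to 3 higher and 1 lower of 7 acute phase genes (Serpina3g in addition), 3 higher and 4 lower of 11 contractile genes (Actg2 and Lmod1 in addition), 3 higher and 5 lower of 16 fibroblast-like genes (Vcan in addition, Cd34 no longer) and 1 higher and 2 lower of 11 cGMP genes (Gucy1a1 in addition).

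Of the 15 genes with the largest decrease, 6 had UMIs enough for the stricter comparison and were lower there as well. Serpinb9b, an intracellular serpin with close copies, was at 33.4 and 54.9 CPM in members and 97.4 and 216 CPM in matched cells (log2 fold change -1.75 ± 0.12, SE, DESeq2 among the 13 of 15 alternative settings that called it). Ctla2a, which resembles a cysteine protease pro-region and also has a close copy, was at 35.9 and 8.13 CPM against 144 and 175 CPM in the first comparison. There 1 cell held 56.4% of its UMIs in the members of replicate 1. In the stricter comparison, without endothelial cells, Ctla2a was at 7.18 and 8.44 CPM against 34.1 and 42.9 CPM. In the clustering described further on, it was with Nts and Pecam1 among the leading genes of a cluster in each library. Elobl was at 20.5 and 32.5 CPM against 88.4 and 61.0 CPM. Its UMIs in members came to 34.7% and 62.5% from 1 cell, and it was found in 7.09% and 9.26% of members and 10.6% and 8.33% of matched cells. The water channel gene Aqp1 was at 2.72 and 8.13 CPM against 11.1 and 37.3 CPM, the basement membrane collagen gene Col4a4 at 3.13 and 5.42 CPM against 15.9 and 10.8 CPM, and the integrin gene Itga8 at 12.3 and 14.2 CPM against 44.9 and 23.7 CPM. Igfbp2, among the largest decreases of the stricter comparison, was at 20.3 and 42.0 CPM against 38.0 and 111 CPM. Igfbp5, also among the largest decreases of the stricter comparison, was at 49.1 and 57 CPM against 142 and 117 CPM there (log2 fold change -1.42 ± 0.12, SE), but differed in sign between the libraries of the first comparison at 49.9 and 96.9 CPM against 140 and 78.6 CPM.

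Many members carried several of the higher genes. Of the 5 genes Sfrp1, Hp, Cxcl1, Lpl and Ptx3, chosen after their values were seen, at least 3 were detected in 182 members (71.7%) and 80 matched cells (31.5%) of replicate 1 and in 47 members (43.5%) and 15 matched cells (13.9%) of replicate 2. None of the 5 was found in 4 and 12 members against 44 and 31 matched cells, and all 5 were found in 35 and 7 members against 11 and 1 matched cells. The number of these genes with a UMI thus varied among members, and a share of the matched cells had the same combination without an Il1rn UMI. Since the genes were chosen as higher in members, larger counts in members than in matched cells follow from the choice. Whether the genes occur together more often than the detection of each alone would give was not tested. Free RNA held Sfrp1 at 230 and 55 CPM, Hp at 45.4 and 18.5 CPM and Cxcl1 at 26 and 8.21 CPM in replicates 1 and 2. How many of the single UMIs came from it was not tested.

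**Figure D4:**
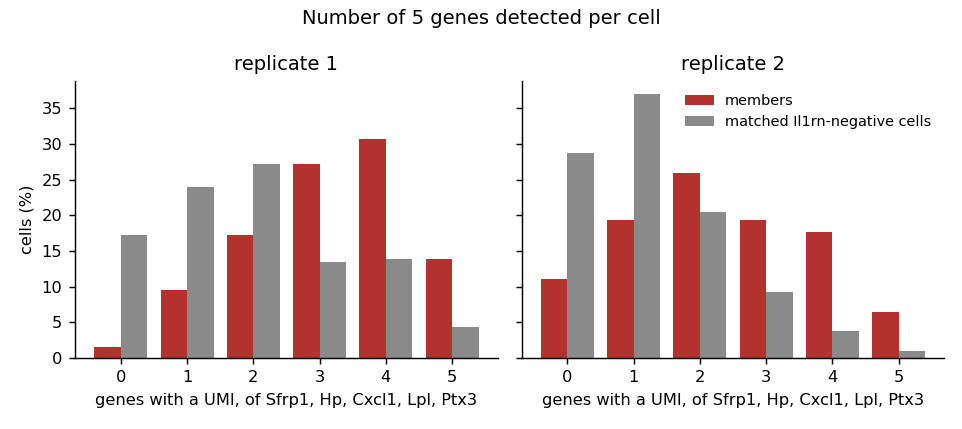
Percent of cells (y axis) by the number of the genes Sfrp1, Hp, Cxcl1, Lpl and Ptx3 with a UMI (x axis), for members and matched Il1rn-negative cells of each library. Members peak at 4 genes in replicate 1 and at 2 in replicate 2, and matched cells at 2 and at 1. The genes were chosen after they were seen to be higher in members.

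Levels also differed between cells with 0, 1 and more Il1rn UMIs that passed the other gates. Sfrp1 was at 454, 1190, 1367, 1395 and 1680 CPM in cells with 0, 1, 2, 3 to 5 and 6 or more Il1rn UMIs of replicate 1, and at 106, 226, 396, 436 and 946 CPM in those of replicate 2. Igfbp4 followed the same order in both libraries, from 584 to 1606 CPM and from 371 to 1392 CPM. Hp was higher from the first UMI onwards in replicate 1 (54.3, 256, 167, 283 and 280 CPM) and mainly in the last step in replicate 2 (37.8, 67.9, 132, 96.9 and 954 CPM), where the step held 12 cells. Cebpa was higher in each step with Il1rn than with 0 UMIs, but did not rise with each step. It was at 12.3, 28.3, 50.1, 48.1 and 63.6 CPM in replicate 1. In replicate 2 it was at 11.4, 21.8, 46.8, 17.3 and 164 CPM, the last from the same 12 cells. Cxcl1, Ccl7 and Il33 did not rise with each step either. Cxcl1 was at 33.8, 95.5, 72.9, 78.7 and 53.8 CPM in replicate 1 and at 9.01, 18.2, 29.8, 10.4 and 86 CPM in replicate 2. Ccl7 was at 29.7, 151, 33.4, 48.1 and 136 CPM in replicate 1 and at 24.7, 66.7, 17, 17.3 and 15.6 CPM in replicate 2. Il33 was at 12.5, 50.2, 12.1, 10.2 and 27.5 CPM in replicate 1 and at 4.3, 8.49, 21.3, 6.92 and 39.1 CPM in replicate 2. Lum was lowest in the last step of both libraries, at 45.9 and 125 CPM against 120 and 200 CPM with 0 UMIs. Cells just inside the Il1rn threshold, with 1 UMI, numbered 76 and 58, and those just outside it, with 0 UMIs, 923 and 2111.

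**Figure D5:**
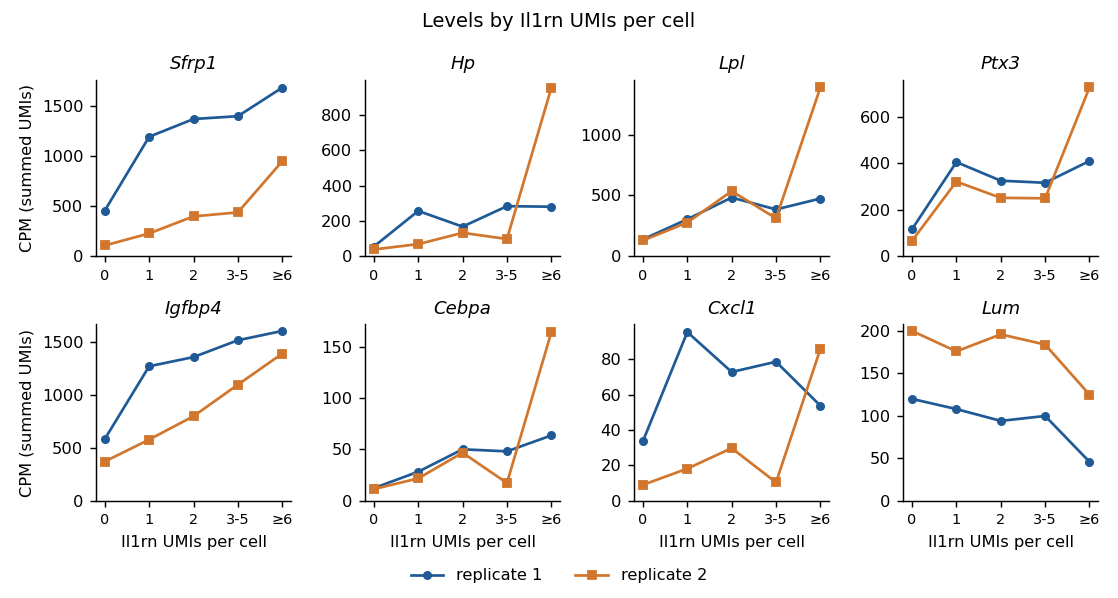
Levels of 8 genes (CPM of summed UMIs, y axes from 0) in cells with low Myh11, low Sox9, no Fgf18 and no cycling, by Il1rn UMIs per cell (x axis), with 1 line per library. Sfrp1 and Igfbp4 are higher with each step in both libraries, and the last step of replicate 2 holds 12 cells.

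The other thresholds of the rule gave differences of varied size and direction. In replicate 1, Il1rn-positive cells with 1 Sox9 UMI, inside the rule, and with 2, outside it, had Sfrp1 at 1594 and 1730 CPM and Hp at 331 and 232 CPM. Il1rn-positive cells without Fgf18 and with 1 Fgf18 UMI had Sfrp1 at 1428 and 1237 CPM and Hp at 258 and 157 CPM. In replicate 2, Sfrp1 was at 344 and 71.9 CPM and Hp at 160.0 and 196 CPM across the Sox9 limit (25 and 10 cells), and Sfrp1 at 356 and 630.0 CPM and Hp at 161 and 54 CPM across the Fgf18 limit (108 and 21 cells). Across the Myh11 limit, cells with 1 and 2 UMIs had Sfrp1 at 2005 and 1219 CPM and Hp at 362 and 134 CPM in replicate 1 (32 and 6 cells), and Sfrp1 at 318 and 422 CPM and Hp at 26.5 and 0 CPM in replicate 2 (6 and 2 cells). Cells with 2 and 3 UMIs of the proliferation genes had Sfrp1 at 1528 and 1179 CPM and Hp at 249 and 127 CPM in replicate 1 (32 and 17 cells), and Sfrp1 at 211 and 123 CPM and Hp at 28.8 and 102 CPM in replicate 2 (9 and 3 cells). Several of these differences were larger than those across the Il1rn limit, and most rest on few cells.

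Members lay in several clusters. Non-cycling cells with low Myh11 were clustered per library without the genes of the rule and without Sfrp1, Hp and Cxcl1. In replicate 1, 1 of 8 clusters held 56.7% of the members and 29.1% of the cells, and in replicate 2, 1 of 12 clusters held 46.3% of the members and 18.1% of the cells. The leading genes of both clusters included Hp, Lpl, Sfrp1, Agt and Rgs16, and 41.4% and 11.4% of their cells carried Il1rn. In replicate 2 a further 34.3% of the members lay in a cluster of 24.0% of the cells led by Fgl2 and Ahsg. Of the other members of replicate 1, 40 (15.7%) lay in a cluster led by Elobl, Lmo7 and Tslp and 15 (5.91%) in one led by Serpinb9b, although Elobl and Serpinb9b were lower in the summed members. A further 30 (11.8%) lay in a cluster led by the mitotic genes Hmmr, Cenpa, Kif20a and Birc5 although they had passed the limit on proliferation genes, 13 in a cluster of low UMIs led by Slc39a1, 6 in one led by Lyz2 and Mmp12, and 3 in one led by Nts and Pecam1. In replicate 2 the mitotic cluster held 4 members and that led by Lyz2 and Mmp12 held 2. At a resolution of 0.5 the cluster with most members consisted mainly of cells without an Il1rn UMI. At 1.0 the cluster with most members had Il1rn in 51.8% of its cells in replicate 1 and in 8.68% in replicate 2. Another cluster of replicate 2 at 1.0, led by H19 and Lpl, held 21 members and had Il1rn in 16.3% of its cells.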

How the data were processed

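The data are scRNA-seq of 2 libraries (10x Genomics 3' v3) of wild type VSMCs at day 5. The deposited values are raw UMI counts for 31053 genes in every barcode, with neither normalization nor selection of cells by the authors. Per the labels, reads were processed with Cell Ranger 3.0.2 and mm10, while the headers of the files name 3.0.2 for replicate 1 and 3.1.0 for replicate 2. Gene identifiers were matched to GENCODE M21 (30934 of 31053), and promoters came from a RefSeq table of GRCm38.p6.

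Cells, members and matched cells were selected as described above. The members and the gene lists were chosen with earlier results of these data known. Each member was matched 1 to 1, without replacement, to the nearest cell in total UMIs of its library, at most 10% apart. Doublets were not called, and leaving out cells above the 95th percentile of UMIs was an alternative. Summed counts were tested with edgeR 4.0.16 (TMM, filterByExpr, quasi-likelihood F test, library as a block, Benjamini-Hochberg adjustment, threshold 0.05), and with DESeq2 1.42.0 as an alternative, in R 4.3.3. The 7 genes of the rule were left out. The SE was derived from the log2 fold change and F. It rests on the spread pooled over genes and does not measure the spread between the 2 libraries. CPM are of summed counts, and values of a single library carry no test. The library pairs members and matched cells, which were grown together, and the deviations of the sums from the class means correlated at 0.542 over 10431 genes. Clusters were made with Leiden (leidenalg 0.10.2) at a resolution of 0.5.

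The genes named are Il1rn, Sfrp1, Hp, Cxcl1, the genes of 30 lists of roles and cell types, and the 15 with the largest log2 fold change in each direction among called genes with the same sign in both libraries and at least 10 CPM. Genes named by the same rule in the stricter comparison, and those said to be named after their values were seen, were added. On simulated counts for 10473 genes with 200 changed, 62.9% of changes of log2 1 and 99% of those of log2 2 were recovered, with 0% false calls. The simulated sums had the same spread for every gene, and none was dominated by a single cell. The simulation therefore gives no rate of false calls for genes whose UMIs came mostly from a single cell, such as Tyrobp. The libraries are separate biological replicates, and p-values rest on 2 of them. Not every result is reported here.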

Additional observations from a re-analysis of the deposited data

Results flagged for a closer look

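Il1rn was also detected in barcodes that the filters left out. Of 1316 barcodes with 1000 to under 3000 UMIs in replicate 1, 34 carried an Il1rn UMI (2.58%, exact binomial 95% interval 1.8 to 3.59), and of 1293 such barcodes in replicate 2, 12 did (0.928%, interval 0.48 to 1.62). The summed level of Il1rn in these barcodes was 25.5 and 6.68 CPM, against 43.1 and 7.3 CPM in the free RNA of the same libraries. Whether these barcodes hold cells was not tested.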

How the results depend on the processing

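The share of members, 3.4% as the mean of the libraries, stayed between 2.2% and 3.55% over 6 alternative filters and was 1.58% to 5.22% when either library was left out. The library block paired the sums. Without the replicate block, edgeR called 0 genes higher and 0 lower, with 362 genes at an unadjusted p under 0.05 and a lowest adjusted p of 0.11, while DESeq2 with the block called 23 higher and 37 lower. With 8 sums in the fit 0 genes were higher and 4 lower, with 1060 at an unadjusted p under 0.05. Against 283 higher and 423 lower genes, the counts were 580 and 795 with all Il1rn-negative cells unmatched. After thinning to 3000 UMIs they were 33 and 53. They were 114 and 148 for members with at least 2 Il1rn UMIs and 145 and 207 under 10% mitochondrial UMIs. Without cells of macrophage or endothelial UMIs they were 96 and 149, and with Sox9- and Fgf18-limited controls 194 and 246. Of 111 genes named in the text, those called in the first comparison gave 14 values of the opposite direction, with the cause not tested, and turns of genes that had not passed are not counted. With either library left out, the log2 fold change was 0.11 (without replicate 1) and -1.08 (without replicate 2) for Sfrp4, -0.20 and 0.63 for Sfrp2, -0.05 and 1.73 for Comp, 0.30 and -1.49 for Igfbp5, 0.10 and -0.48 for Dcn, and 0.38 and -0.95 for Ly6c1. Col2a1 was at -0.67 with controls limited on Sox9 and Fgf18 and at -1.21 in the stricter comparison. Lgals3 was at -0.77 without macrophage and endothelial cells and at -1.22 in the stricter comparison, while Lyz2 was at -0.07 in both and Egfl7 at 0.48 and 0.93. The log2 fold changes of Sfrp1, Hp and Lpl kept their sign in each setting tried and lost their call without the block and in the fit of 8 sums. The same held for Cebpa, except that DESeq2 gave it no adjusted p. At a resolution of 1.0 the cluster with most members held 33.9% and 26.9% of them. DESeq2 was run with its default filter on low mean counts and gave no adjusted p for 6669 of 10424 genes. Cxcl1, Il33, Cebpa and Kng1 were among these, so that DESeq2 did not judge them.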
